A study of Mus musculus with 16 samples.

Results

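The comparison set B16F10 tumors from mice given α-KG together with an anti-PD1 antibody against B16F10 tumors from mice given α-KG alone, and so measured the effect of adding PD1 blockade to α-KG. It used 8 of the 16 tumors of the study, 4 in each group, and 12850 of the 18929 genes listed, those at 0.5 FPKM or more in at least 4 of the 16 tumors. FPKM counts the sequenced fragments of a gene relative to the length of its transcript and to all fragments mapped in that tumor. B16F10 cells, a melanoma line of C57BL/6 origin, grow as tumors in mice of that strain. Female C57BL/6 mice aged 7 to 8 weeks received the cells in the right abdomen, and intraperitoneal treatment began at a tumor volume of about 50 mm3 and lasted 9 to 11 days. The α-KG group received α-KG at 100 mg/kg, and the α-KG + anti-PD1 group, here also called the combination, received the same dose together with the anti-PD1 monoclonal antibody. The vehicle group (corn oil with an IgG isotype control) and the group given anti-PD1 alone entered the fit and served for a second contrast, that of the antibody with and without α-KG. Whether the mice given α-KG alone also received the isotype control is not given per group in the sources used here. The samples were whole tumor tissue with tumor, stromal, blood and immune cells, so fewer cells of a type and less RNA per cell cannot be told apart in any of the values below.

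PD1, encoded by Pdcd1, is an inhibitory receptor of activated T cells, and its ligand PD-L1, encoded by Cd274, is carried by tumor cells and myeloid cells. T cells and NK cells that are active release interferon gamma (IFNγ), which signals through JAK kinases and STAT factors and switches on a program of GTPases, chemokines and antigen-presentation genes in the cells around them. Neutrophils are drawn into tumors by a different set of chemokines, which bind the receptor CXCR2, and are known by granule and calcium-binding proteins such as S100A8, S100A9 and lipocalin 2. α-KG is a metabolite of the citric acid cycle and a cofactor of the TET enzymes, which oxidize methylated DNA, and of the Jumonji histone demethylases.

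The tumors of the 2 groups differed in several ways that concern the whole profile. The sum of all FPKM values was 581805 to 654772 per α-KG tumor and 514180 to 527812 per combination tumor. Hemoglobin genes made up 4.85% to 15.1% of the sum in the former and 2.09% to 2.23% in the latter, so the values of the other genes were not on an equal scale and each result was also computed after other scalings. Genes of the melanocyte lineage were high in every tumor, as B16F10 cells are of that lineage, with a list level (the mean log2(FPKM + 1) over the genes of a list) of 7.86 to 8.01 in the α-KG and 7.77 to 8.02 in the combination tumors. Skeletal muscle genes had list levels of 2.80, 2.20, 0.40 and 0.34 in α-KG + anti-PD1 tumors 1, 2, 3 and 4 and of 0.28, 0.32, 0.28 and 0.28 in the α-KG tumors, so tumors 1 and 2 of the combination stood apart. Each count of genes was therefore also taken without those tumors, a choice made after the data were seen. Pearson's r of log2(FPKM + 1) was 0.980 to 0.993 between α-KG tumors, 0.967 to 0.989 between α-KG + anti-PD1 tumors and 0.928 to 0.972 between tumors of the 2 groups. The number of reads behind each value is unknown, since only FPKM values were used.

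Adding anti-PD1 to α-KG went with higher levels of T-cell, cytotoxic and IFNγ-response genes and with much lower levels of neutrophil genes and neutrophil-attracting chemokines, while markers carried by all leukocytes had a median change near 0. Of the 12850 genes, 4918 had a limma adjusted p under 0.05 between the groups, 38.3% of those tested. Of these, 4086 were higher after α-KG + anti-PD1 (31.8% of the genes tested) and 832 were lower (6.47%). These 2 shares are the background beside which the counts of the gene lists below stand. The groups did not overlap, all 4 values of one being beyond all 4 of the other, in 4549 genes, 35.4% of those tested, and in 3984 of the called genes. Over all genes tested the log2 fold change had a median of 0.16, and 687 called genes were at least 1 log2 unit higher and 189 at least 1 lower. The balance of higher and lower genes depended on the scale. It was 2023 against 2020 after quantile normalization, 1758 against 3127 after centering each tumor on its median, 6846 against 367 with every tumor rescaled to one sum and 5151 against 579 when that sum left out hemoglobin genes, with medians over all genes of -0.04, -0.11, 0.36 and 0.24. Without α-KG + anti-PD1 tumors 1 and 2, 2536 genes were called, 2135 higher and 401 lower. For genes near these medians the direction therefore depended on the scale.

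The 12 genes with the largest rise, among those with separate groups and a mean of at least 1 FPKM in the higher group, were GTPases of the IFNγ response (Iigp1, Gbp4, Tgtp1, Tgtp2, Gbp6 and Igtp), granzymes and perforin of killer cells (Gzmf, Gzmb and Prf1), the interferon-induced apolipoprotein L genes Apol9a and Apol9b, and the chemokine gene Cxcl9. Their log2 fold changes ran from 3.35 for Cxcl9 to 4.47 for Iigp1. The 12 genes with the largest fall were chemokine genes (Cxcl2 and Cxcl3), neutrophil genes (Lcn2, S100a9, S100a8, Hdc, Slpi and Stfa2l1), the cytokine gene Il1b, the acute-phase gene Saa3, G0s2, a regulator of lipolysis, and the cystatin gene Cstdc4. They ran from -4.38 for Cstdc4 to -6.30 for Cxcl2. Tgtp1 and Tgtp2, Apol9a and Apol9b, and the Gbp genes are close or near-identical copies of one another, so how reads were divided between them is uncertain. Because 1 was added to each FPKM value before taking logs, the fold change of a gene near or below 1 FPKM is understated.

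**Figure D1:**
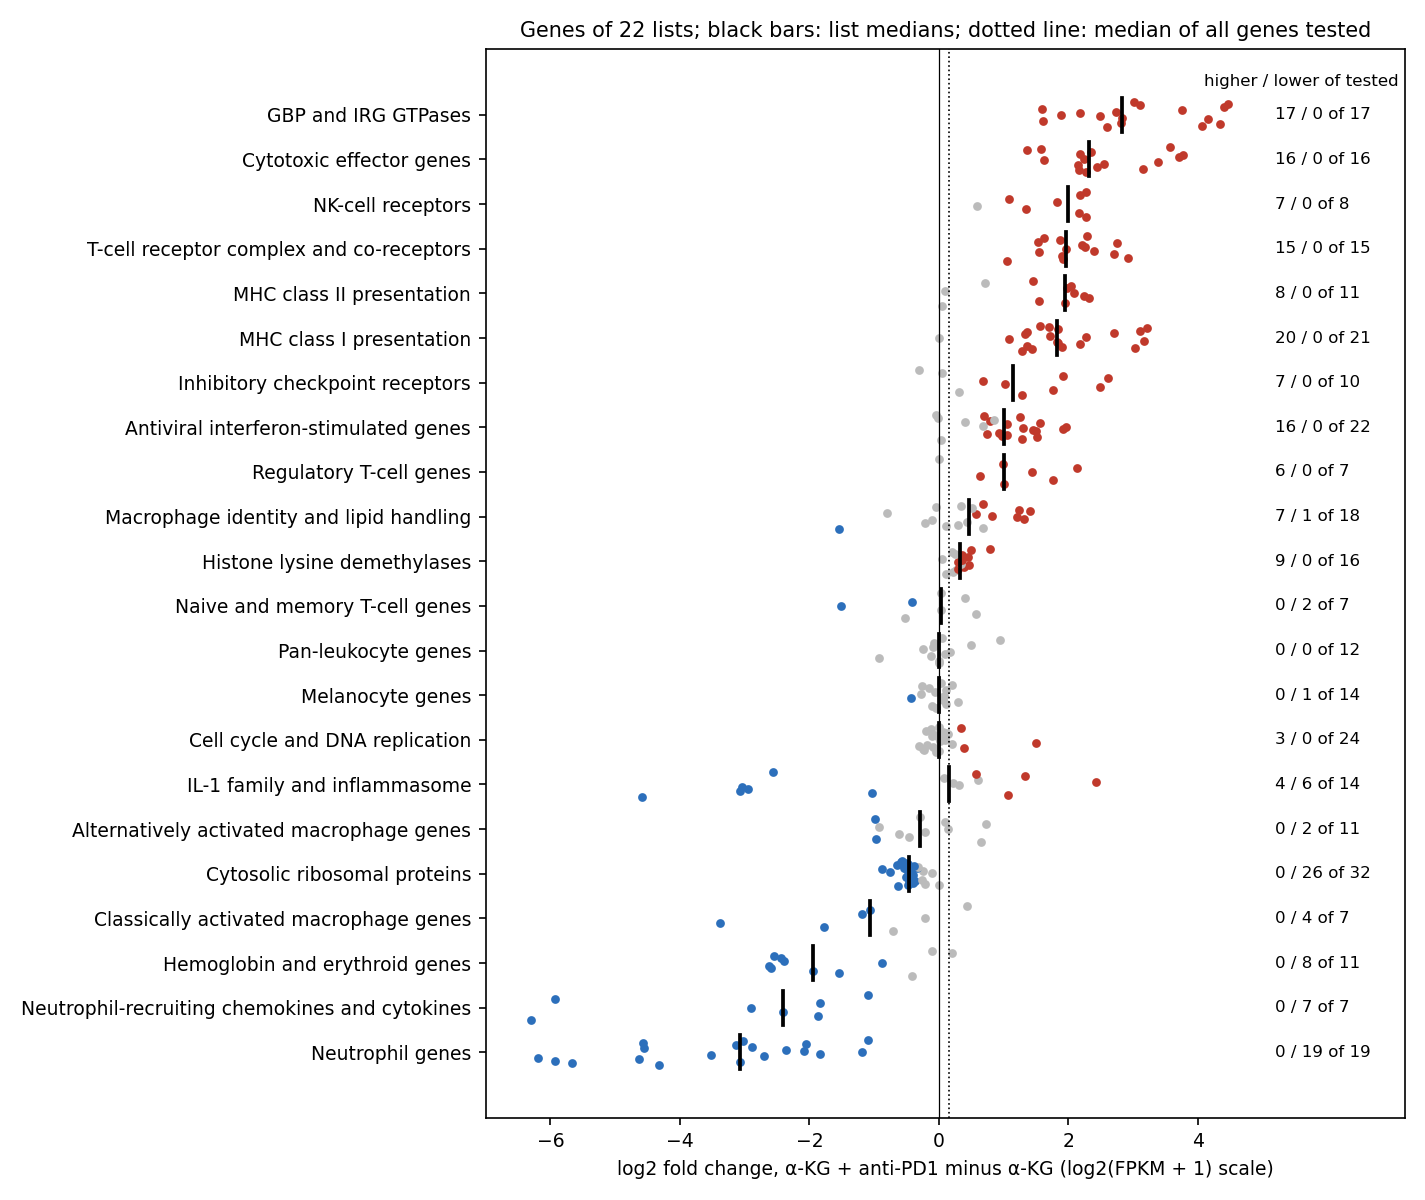
Each point is a gene, placed by its log2 fold change between α-KG + anti-PD1 and α-KG tumors on the log2(FPKM + 1) scale (horizontal axis) in 22 gene lists (rows), red where it was called higher, blue where lower and gray where not called. All 17 tested GTPase genes lie right of 0 and all 19 tested neutrophil genes lie left of 0, while the 12 pan-leukocyte genes surround 0.

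The promoters of some of the genes that moved furthest are shown because they hold letters of the kind that known regulators of such genes bind. The stretches are the 120 bases just before the transcription start in RefSeq, build GRCm38.p6, read 5′ to 3′ on the strand of the gene. For the IFNγ-response genes, capitals mark a GAS motif (TTCNNNGAA, the kind of site that STAT dimers bind) and the core of an ISRE (GAAA, any 2 bases and GAAA again, the kind of site bound by IRF factors and STAT complexes).
Igtp, chr11:58199436-58199555, + strand: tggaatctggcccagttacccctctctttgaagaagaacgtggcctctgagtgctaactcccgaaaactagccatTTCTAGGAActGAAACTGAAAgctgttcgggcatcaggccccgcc
Tgtp1, chr11:48992247-48992366, − strand: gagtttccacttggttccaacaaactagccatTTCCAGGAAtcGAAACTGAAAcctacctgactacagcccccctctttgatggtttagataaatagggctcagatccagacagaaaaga
Tgtp2, chr11:49064213-49064332, − strand: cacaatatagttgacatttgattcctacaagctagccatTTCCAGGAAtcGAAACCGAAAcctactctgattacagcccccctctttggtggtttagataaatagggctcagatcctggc
Irf1, chr11:53769894-53770013, + strand: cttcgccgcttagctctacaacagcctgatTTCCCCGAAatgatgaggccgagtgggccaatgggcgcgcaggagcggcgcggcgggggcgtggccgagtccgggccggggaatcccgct

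Igtp, Tgtp1 and Tgtp2 each hold both motifs next to each other, with the GAS first. In Igtp the GAS match spans 45 to 37 bases before the start and the ISRE core 34 to 25. Irf1, the gene of the transcription factor IRF1, holds a GAS match 90 to 82 bases before its start. RefSeq promoter windows, each of 300 bases, were matched for 10335 of the tested genes, some of which had several windows. A gene was counted as holding a motif if any of its windows did, on either strand. The GAS motif was held by 8.67% of these genes and the ISRE core by 3.90%. Of the 17 tested GTPase genes 10 had a window, and all 10 held the ISRE core and 6 the GAS motif. The 18 MHC class I presentation genes with a window held the ISRE core in 5 cases, and the 9 T-cell receptor complex genes with a window in 0. The genes that fell are represented by 3 chemokine genes, which lie on chromosome 5, where capitals mark a κB motif (GGGA, any 2 bases and TTCC, the kind of site that NF-κB binds).
Cxcl1, chr5:90891125-90891244, + strand: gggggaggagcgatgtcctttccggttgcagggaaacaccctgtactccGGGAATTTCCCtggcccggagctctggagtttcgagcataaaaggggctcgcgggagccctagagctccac
Cxcl2, chr5:90903779-90903898, + strand: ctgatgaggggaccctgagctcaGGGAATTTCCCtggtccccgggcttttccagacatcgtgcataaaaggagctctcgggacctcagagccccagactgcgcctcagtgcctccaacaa
Cxcl3, chr5:90785981-90786100, + strand: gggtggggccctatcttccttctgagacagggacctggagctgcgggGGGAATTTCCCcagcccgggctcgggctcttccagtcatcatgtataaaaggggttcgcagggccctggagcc

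All 3 promoters carry the same 11 letters in capitals, which hold overlapping matches of the κB motif on both strands, between 97 and 61 bases before the start. The κB motif was found in 1.78% of the 10335 genes with a window and in 3 of the 6 neutrophil-recruiting chemokine and receptor genes that had one. A C/EBP motif (TTGCNNAA) is the kind of site bound by factors of the neutrophil lineage. Among genes with a window it was found in 8 of 18 neutrophil genes, 3 of 9 T-cell receptor complex genes, 2 of 10 GTPase genes and 10.3% of all genes. The κB motif was also found in 2 of 10 GTPase genes and in 1 of 18 neutrophil genes with a window. A match describes letters only, and whether any factor bound there was not measured.

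Ifng (Gene ID 15978), which encodes IFNγ itself, stood at 11.5, 4.37, 14.4 and 1.37 FPKM in α-KG + anti-PD1 tumors 1, 2, 3 and 4 against 0.27, 0.77, 0.18 and 0.06 FPKM in α-KG tumors 1, 2, 3 and 4. From here on, values joined by the word against give the combination tumors first, then the α-KG tumors, each from tumor 1 to tumor 4. Every combination tumor was above every α-KG tumor, with tumors 1 and 3 highest and tumor 4 lowest, and the difference passed limma's test (log2 fold change 2.44, standard error 0.46, adjusted p = 0.00151), although the combination tumors spread widely and tumor 4 lay close to α-KG tumor 2. The α-KG + anti-PD1 tumors kept this order, with tumors 1 and 3 above tumor 2 and tumor 2 above tumor 4, in most of the T-cell and IFNγ-response genes that follow. Among 10 tested genes of the axis that makes and senses IFNγ, 6 rose and 0 fell, and the median change was 0.65 on the log2 scale. One of them, Il12rb1, which encodes a receptor chain for interleukin 12, rose by 2.04, from 2.22 ± 0.871 to 14.3 ± 8.90 FPKM (SD, n = 4). Only 3 of the 10 were called after quantile normalization or after centering, and in the latter 1 was lower.

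The GTPases that IFNγ induces, the guanylate-binding proteins and immunity-related GTPases that act against intracellular microbes, rose without exception. All 17 tested genes were higher, and their log2 fold changes had a median of 2.83 against 0.16 over all genes, and in all 17 the groups did not overlap, against 29.7% of all genes separated in this direction. All 17 were also called after each other scaling and without tumors 1 and 2 of the combination, where the median was 2.54. Iigp1 (Gene ID 60440) stood at 88.9, 40.5, 76.8 and 20.4 FPKM in the combination tumors against 1.42, 3.11, 0.77 and 0.45 in the α-KG tumors (log2 fold change 4.47, standard error 0.77, adjusted p = 0.00092). Gbp4 (Gene ID 17472) stood at 58.1, 29.7, 51.4 and 10.7 FPKM against 0.33, 1.63, 0.24 and 0.24 (log2 fold change 4.41, standard error 0.71, adjusted p = 0.00061). The lowest combination tumor, tumor 4, was still several times above the highest α-KG tumor, tumor 2, in both genes. Igtp, whose promoter is printed above, stood at 146, 70.98, 138 and 35.9 FPKM against 5.13, 11.7, 4.07 and 3.09, a log2 fold change of 3.76. Tgtp1 and Tgtp2 rose by 4.35 and 4.16, and Gbp6 by 4.06.

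The signal chain from the IFNγ receptor to these genes rose unevenly. Stat2, a factor of type I interferon signaling, rose by 1.95 (adjusted p = 0.00193), and the kinase gene Tyk2 by 0.70 (adjusted p = 0.000601), both with separate groups. Stat3 (Gene ID 20848), which carries IL-6 and IL-10 signals, stood at 74.1, 47.7, 69.4 and 55.4 FPKM against 53.1, 41.7, 41.5 and 56.8. Its groups overlapped and the difference did not pass (log2 fold change 0.34, standard error 0.14, adjusted p = 0.0653), with a 95% interval of 0.04 to 0.63. It passed after rescaling to the same sum with hemoglobin genes (0.56) or without them (0.43), with the level of pan-leukocyte genes as a covariate (adjusted p = 0.0479), without α-KG tumor 4 (0.42) and without combination tumor 2 (0.45). Of the 11 tested JAK and STAT genes 6 rose and 0 fell, with 3 after quantile normalization and 9 after rescaling to the same sum. Of the 8 tested IRF genes 6 rose, led by Irf1 (Gene ID 16362) at 97.7, 53.1, 109 and 33.9 FPKM against 11.2, 16.4, 9.85 and 9.31 (log2 fold change 2.44, standard error 0.56, adjusted p = 0.00428) and by Irf8 at 2.11, with 3 called after quantile normalization and 2 after centering. The feedback inhibitors split. Socs1, which damps IFNγ signaling, rose by 2.20 (2.50 ± 0.703 to 18.8 ± 13.4 FPKM, SD, n = 4, adjusted p = 0.00413), while Socs3, which damps IL-6 and G-CSF signaling, fell by 1.40 on the log2 scale (53.99 ± 20.6 to 20.1 ± 7.78 FPKM, adjusted p = 0.00266).

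Antigen presentation on MHC class I, the route by which CD8 T cells recognize tumor cells, rose nearly as a whole. Of 21 tested genes 20 were higher and 0 lower, the median log2 fold change being 1.82, and in 18 the groups were separate. Tap1 (Gene ID 21354), a subunit of the peptide transporter, stood at 119, 80.9, 143 and 43.9 FPKM against 10.4, 19.1, 6.64 and 7.04 (log2 fold change 3.04, standard error 0.75, adjusted p = 0.00617). Nlrc5, the transactivator of class I genes, stood at 23.4, 23.1, 27.5 and 11.02 FPKM against 1.42, 2.44, 0.84 and 0.98 (log2 fold change 3.17, standard error 0.57, adjusted p = 0.00111). In both genes every combination tumor lay above every α-KG tumor, and α-KG tumor 2 was the highest of its group. Tap2 rose by 3.10, the immunoproteasome gene Psmb9 by 3.22 and the light chain gene B2m by 1.37. B2m had the weakest support of these (adjusted p = 0.0384) and was not called without α-KG tumor 1, 3 or 4 or without combination tumor 1 or 3, with log2 fold changes of 1.21 to 1.39, nor after centering (1.09). Without combination tumors 1 and 2 together, 7 of the 21 genes were called, the median was 1.59 and B2m, Psmb9 and Tap1 were lost (adjusted p = 0.151, 0.0632 and 0.0524).

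MHC class II genes, which dendritic cells, macrophages and B cells use to present antigen to CD4 T cells, were higher in 8 of 11 tested genes and lower in 0, with a median of 1.95. Only 2 of them had separate groups. H2-Aa stood at 688, 185, 571 and 90.7 FPKM against 69.4, 136, 45.3 and 44.8 (log2 fold change 2.09, standard error 0.71, adjusted p = 0.0309), with α-KG tumor 2 above combination tumor 4. It was not called without α-KG tumor 1, 3 or 4 or combination tumor 1 or 3, with log2 fold changes of 1.67 to 2.11. H2-DMb1 and H2-DMa, which load peptides, rose by 2.32 and 2.25 (adjusted p = 0.00991 and 0.00944). Without combination tumors 1 and 2, 1 of the 11 genes was called and the median was 1.63, and H2-Aa, H2-DMb1 and H2-DMa were lost, with log2 fold changes of 1.77, 2.06 and 1.99.

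Genes of the antiviral response, which type I interferon drives most strongly, rose by less. Of 22 tested genes 16 were higher and 0 lower, with a median of 1.02, and 9 were called without combination tumors 1 and 2. Ifit3 stood at 39.4, 17.1, 29.8 and 19.2 FPKM against 5.83, 9.41, 6.22 and 3.31, and its groups were separate (log2 fold change 1.92, standard error 0.44, adjusted p = 0.00401). Zbp1, a sensor of nucleic acids, rose by 1.96 (adjusted p = 0.0182) but was not called without combination tumor 1 (1.70) or tumor 3 (1.72), nor without tumors 1 and 2 (1.77). Isg15, the first gene of the list and a ubiquitin-like protein, stood at 45.2, 26.8, 48.4 and 28.4 FPKM against 27.9, 39.6, 45.5 and 34.7. Its groups overlapped, with a log2 fold change of -0.02 and a 95% interval of -0.53 to 0.50.

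T-cell genes rose, although α-KG tumor 2 reached the range of the combination tumors. All 15 tested genes of the T-cell receptor complex and its co-receptors were higher, the median being 1.97 on the log2 scale, and in 0 of the 15 were the groups separate. Their list level was 4.48, 2.92, 4.24 and 1.93 in α-KG + anti-PD1 tumors 1, 2, 3 and 4 and 1.07, 2.43, 0.95 and 0.86 in the α-KG tumors, so α-KG tumor 2 lay above combination tumor 4. Cd8a (Gene ID 12525), a chain of the CD8 co-receptor, stood at 30.5, 10.04, 25.2 and 3.11 FPKM against 0.59, 3.63, 0.58 and 0.56 (log2 fold change 2.75, standard error 0.57, adjusted p = 0.00231). Cd3e (Gene ID 12501), a signaling chain of the T-cell receptor, stood at 25.6, 6.30, 19.8 and 2.37 FPKM against 0.73, 3.32, 0.74 and 0.96 (log2 fold change 2.27, standard error 0.51, adjusted p = 0.00369). In both genes α-KG tumor 2 stood far above the other α-KG tumors and above combination tumor 4, and tumors 1 and 3 of the combination were highest. Cd3g, Cd3d and Thy1, further T-cell surface genes, rose by 2.71, 2.29 and 2.93, with the same overlap. Without combination tumors 1 and 2, 9 of the 15 were called, with a median of 1.70.

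The genes by which T cells and NK cells kill were higher in all 16 tested cases, with a median of 2.31, and 9 had separate groups. Gzmb (Gene ID 14939), granzyme B, stood at 139, 35.2, 107 and 12.8 FPKM against 3.98, 5.35, 1.99 and 1.74 (log2 fold change 3.71, standard error 0.73, adjusted p = 0.00181). Prf1, the pore protein perforin, stood at 51.1, 14.4, 55.5 and 6.60 FPKM against 1.23, 3.40, 0.88 and 0.53 (log2 fold change 3.39, standard error 0.63, adjusted p = 0.0014). Gzmf, a granzyme of strongly activated killer cells, stood at 46.7, 9.07, 24.1 and 4.51 FPKM against 0.18, 0.31, 0.12 and 0.09 (log2 fold change 3.78, standard error 0.63, adjusted p = 0.000764). In each of these 3 genes the lowest combination tumor was above the highest α-KG tumor. Nkg7, a protein of killer-cell granules, rose from 5.35 ± 6.43 to 74.9 ± 57.1 FPKM (SD, n = 4, log2 fold change 3.57), with α-KG tumor 2 just above combination tumor 4. The IL-2 receptor chain gene Il2rb and the chemokine receptor gene Cxcr6, both carried by activated T cells, rose by 3.23 and 2.63 with separate groups. Of the 8 tested genes of the NK-cell list, which holds Gzma and Eomes besides receptor genes, 7 rose, with a median of 2.00. Among them were the NK-defining Ncr1, at 3.08, 0.50, 2.67 and 0.36 FPKM against 0.11, 0.13, 0.07 and 0.11, and Klrc1 (2.27). The list members Klrb1c, Klra7, Klra8 and Klri2 were under the filter and reached at most 3.90, 3.82, 2.70 and 2.01 FPKM in any tumor. Without combination tumors 1 and 2, 12 of the 16 cytotoxic and 5 of the 8 NK-cell genes were called.

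Genes of inhibitory receptors on T cells rose with them. Of 10 tested genes 7 were higher and 0 lower, with a median of 1.15. Pdcd1 (Gene ID 18566), the target of the antibody, stood at 24.8, 7.84, 21.02 and 3.15 FPKM against 0.54, 3.06, 0.66 and 0.44, with combination tumor 4 just above α-KG tumor 2 (log2 fold change 2.61, standard error 0.54, adjusted p = 0.00246). Lag3, Ctla4 and Tigit rose by 2.50, 1.77 and 1.92. Tox, a factor of exhausted T cells, rose by 1.90, while Tcf7, a factor of naive and stem-like T cells, stood at 16.1, 6.76, 13.5 and 5.89 FPKM against 5.05, 10.2, 5.22 and 5.27 and did not pass (log2 fold change 0.58, adjusted p = 0.0944). Tcf7 was called without α-KG tumor 2 (0.79, adjusted p = 0.0270) and without combination tumor 4 (0.79, adjusted p = 0.0250), and also after rescaling to the same sum (0.78, adjusted p = 0.0239) and with the pan-leukocyte covariate (0.57, adjusted p = 0.0387). Genes of regulatory T cells were higher in 6 of 7 tested cases, with Foxp3, their defining factor, at 1.95, 0.71, 3.12 and 1.62 FPKM against 0.16, 0.58, 0.32 and 0.38 (log2 fold change 1.01, adjusted p = 0.00224) and the OX40 gene Tnfrsf4 up by 2.13. The costimulatory receptor gene Cd27 rose by 2.10, and 6 of 9 tested costimulatory genes rose, 4 after quantile normalization and 3 after centering. Genes of naive and memory T cells did not follow, with 0 of 7 higher and 2 lower and a median of 0.03, which was -0.25 with centering and 0.16 with equal sums.

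Part of the inhibitors of granzymes and cathepsins were higher. Of 10 tested serpin genes 5 were higher and 0 lower, where 31.8% and 6.47% of all genes were. Their median was 0.78, and after centering 3 were lower. Serpina3g, found in activated T cells and IFNγ-treated cells, stood at 49.4, 17.7, 52.1 and 10.6 FPKM against 1.48, 4.61, 1.31 and 0.85 (log2 fold change 3.31, standard error 0.59, adjusted p = 0.00112), and Serpinb9, which blocks granzyme B, rose by 1.63, both with separate groups. The death ligand gene Fasl rose from 0.325 ± 0.302 to 2.84 ± 2.12 FPKM (SD, n = 4, log2 fold change 1.37, adjusted p = 0.00453) while Fas, its receptor, went the other way, at 1.48, 0.62, 0.84 and 0.65 FPKM against 3.87, 2.48, 4.30 and 7.34 (log2 fold change -1.49, standard error 0.21, adjusted p = 0.000249). Among 14 tested death receptor and ligand genes 5 rose and 3 fell, where 31.8% and 6.47% of all genes did, with 4 each way after centering.

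Chemokines that attract T cells moved in both directions. Of 11 tested chemokine and receptor genes 6 rose and 2 fell, with a median of 1.00. Cxcl9 (Gene ID 17329), an IFNγ-induced ligand of CXCR3, stood at 40.9, 12.1, 33.7 and 7.30 FPKM against 1.02, 2.32, 0.75 and 0.24 (log2 fold change 3.35, standard error 0.57, adjusted p = 0.000847). The members that fell were Ccl3 and Ccl4, the genes of chemokines that myeloid cells release on stimulation. Ccl3 (Gene ID 20302) stood at 74.8, 44.2, 129.99 and 72.8 FPKM against 501, 329.8, 522 and 759 (log2 fold change -2.74, standard error 0.31, adjusted p = 4.53e-05), and Ccl4 fell by 2.54 on the log2 scale. In Cxcl9 all 4 combination tumors were above, and in Ccl3 all 4 were below, the α-KG tumors.

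**Figure D2:**
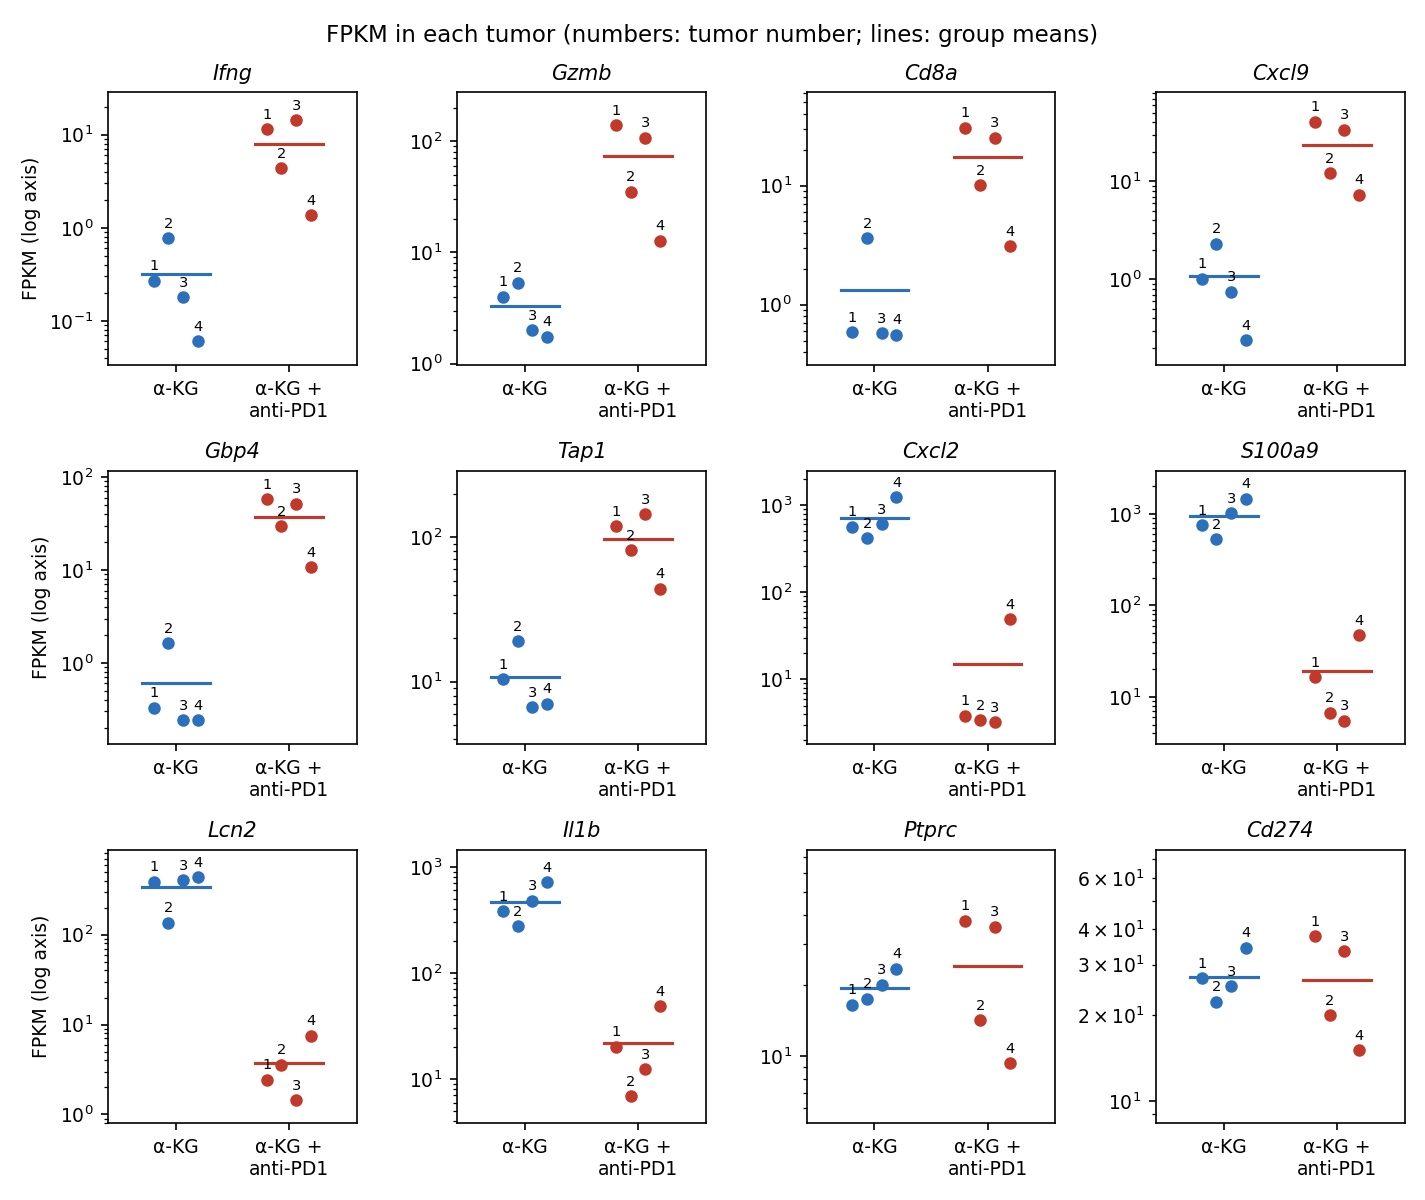
FPKM on a logarithmic vertical axis for 12 genes in the 4 α-KG (blue) and 4 α-KG + anti-PD1 (red) tumors, numbered, with lines at the group means. Ifng, Gzmb, Cxcl9, Gbp4 and Tap1 lie higher and Cxcl2, S100a9, Lcn2 and Il1b lower in every α-KG + anti-PD1 tumor, while the groups overlap for Cd8a, Ptprc and Cd274.

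Neutrophil genes fell as a whole. All 19 tested genes were lower in the combination, against 6.47% of all genes, and the median of their log2 fold changes was -3.07, and in 18 the groups were separate, against 5.68% of all genes separated in this direction. Their list level was 2.00, 1.44, 1.85 and 2.34 in combination tumors 1, 2, 3 and 4 against 4.66, 4.14, 4.92 and 5.18 in the α-KG tumors. All 4 α-KG tumors were high, and the combination tumors lay in a range near that of the anti-PD1 tumors, at 1.46, 2.17, 1.36 and 1.69, and above the vehicle tumors, at 1.04, 1.27, 1.23 and 1.23. S100a9 (Gene ID 20202), a subunit of calprotectin, the calcium-binding protein of neutrophils, stood at 16.6, 6.74, 5.49 and 47.4 FPKM in the combination tumors against 751, 529, 1021 and 1473 FPKM in the α-KG tumors (log2 fold change -5.94, standard error 0.64, adjusted p = 3.2e-05). Lcn2 (Gene ID 16819), the iron-scavenging lipocalin 2 of neutrophil granules, stood at 2.44, 3.59, 1.44 and 7.55 FPKM against 390.2, 136, 406 and 438 (log2 fold change -6.20, standard error 0.41, adjusted p = 3.46e-07). No tumor of one group came near the other in these genes, although combination tumor 4 was the highest of its group in both. S100a8, the partner of S100a9, fell by 5.67 on the log2 scale, the histidine decarboxylase gene Hdc by 4.64, the protease inhibitor gene Slpi by 4.57, and Stfa2l1, a stefin listed at 0 in combination tumors 2 and 3, by 4.56. Camp, Ltf, Elane and Mpo, granule genes of neutrophil precursors that belong to the list, were under the filter and reached at most 0.53, 1.26, 0.24 and 0.04 FPKM in any tumor. Without combination tumors 1 and 2, 18 of the 19 were called, and all 19 were called after every other scaling.

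The chemokines and growth factors that call neutrophils moved with them, in a list that also holds the chemokine receptor genes Cxcr1 and Cxcr2. These receptors are carried by neutrophils, and Cxcr2 stands in the list of neutrophil genes too. All 7 tested genes were lower, all with separate groups and a median of -2.40, and all 7 were called after every scaling and without combination tumors 1 and 2. Cxcl2 (Gene ID 20310), a CXCR2 ligand, stood at 3.83, 3.42, 3.25 and 49.1 FPKM in the combination tumors against 566, 414, 607 and 1232 FPKM in the α-KG tumors (log2 fold change -6.30, standard error 0.64, adjusted p = 1.9e-05). Cxcl3 (Gene ID 330122) stood at 0.89, 1.02, 2.32 and 5.22 FPKM against 158, 138, 127 and 377 (log2 fold change -5.92, standard error 0.39, adjusted p = 3.46e-07). Combination tumor 4 was highest of its group in both genes, and its Cxcl2 value was more than 10 times that of the other combination tumors but still below every α-KG tumor. Cxcl1, the third of the genes with the same κB letters, was expressed at a far lower level and stood at 0.27, 0.43, 0.11 and 2.15 FPKM against 4.52, 3.67, 3.55 and 7.70 (log2 fold change -1.83, standard error 0.27, adjusted p = 0.000382). Csf3, which encodes the growth factor G-CSF, fell from 9.38 ± 4.69 to 0.358 ± 0.610 FPKM (SD, n = 4, log2 fold change -2.90), and Ppbp, a platelet chemokine, from 9.55 ± 3.64 to 0.920 ± 0.243 FPKM (log2 fold change -2.40).

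Genes of the IL-1 family and of innate stimulation were called in both directions, but only as lower without combination tumors 1 and 2. Il1b (Gene ID 16176), the main secreted IL-1, stood at 20.2, 6.91, 12.4 and 48.4 FPKM against 384, 276, 481 and 722 (log2 fold change -4.59, standard error 0.50, adjusted p = 3.53e-05). Il1a, the receptor antagonist gene Il1rn and the decoy receptor gene Il1r2, which neutrophils carry, fell by 3.03, 2.95 and 3.07 on the log2 scale, so agonists and antagonists moved the same way. Of the 14 tested IL-1 family and inflammasome genes 6 fell and 4 rose, and the list median of 0.15 was -0.13 after quantile normalization and -0.12 after centering. Without combination tumors 1 and 2, 6 of the 14 fell and 0 rose. Cd14 (Gene ID 12475), the co-receptor for bacterial lipopolysaccharide on monocytes and activated neutrophils, stood at 13, 5.03, 12.4 and 20.4 FPKM against 189, 140.5, 239 and 359 (log2 fold change -4.14, standard error 0.44, adjusted p = 2.99e-05), and Tlr2 fell by 1.34 on the log2 scale (adjusted p = 0.00439). Among 13 tested Toll-like receptor and adaptor genes 5 fell and 2 rose, with a median of 0.12, and 4 fell and 5 rose after rescaling to the same sum. Without combination tumors 1 and 2, 4 of the 13 fell and 0 rose. Ptgs2, the inducible cyclooxygenase, stood at 6.85, 1.04, 3.42 and 9.16 FPKM against 44.96, 33.6, 58.5 and 88.04, with separate groups (log2 fold change -3.38, standard error 0.39, adjusted p = 5.45e-05). Tnf stood at 7.40, 2.24, 10.1 and 15.7 FPKM against 35.3, 10.9, 44.1 and 33.8, with combination tumor 4 above α-KG tumor 2 (log2 fold change -1.77, standard error 0.44, adjusted p = 0.00602), and it was not called without combination tumors 1 and 2 (-1.08, adjusted p = 0.0754). The rapid-response genes Dusp1 and Zfp36, which shut off stress signaling and cytokine messages, fell by 2.26 and 1.41 on the log2 scale, within a list of 15 immediate early genes of which 5 fell and 1 rose, and 4 fell and 3 rose after rescaling to the same sum. Without combination tumors 1 and 2, 4 of the 15 fell and 0 rose.

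The 12 tested pan-leukocyte genes, which all leukocytes carry, show whether total leukocyte level was equal between the groups. Of these genes 0 were called by limma, 1 was higher and 1 lower at an unadjusted p under 0.05, and their median log2 fold change was 0.0007, with a range of -0.27 to 0.28 over the alternatives. Over all 12850 genes tested, limma gave 6166 at an unadjusted p under 0.05, in either direction. Equality held for the group means only. The list level was 5.28, 5.29, 5.32 and 5.46 in α-KG tumors 1, 2, 3 and 4 and 6.08, 4.82, 6.08 and 4.47 in the combination tumors, so combination tumors 1 and 3 were above and tumors 2 and 4 below every α-KG tumor. Ptprc (Gene ID 19264), which encodes CD45 and defines the list, stood at 37.6, 14.2, 35.5 and 9.34 FPKM against 16.5, 17.6, 20.1 and 23.5 (log2 fold change 0.10, 95% interval -0.81 to 1.01, adjusted p = 0.877). With the pan-leukocyte level as a covariate 5499 genes were called, and 4913 of them were also called without it.

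**Figure D3:**
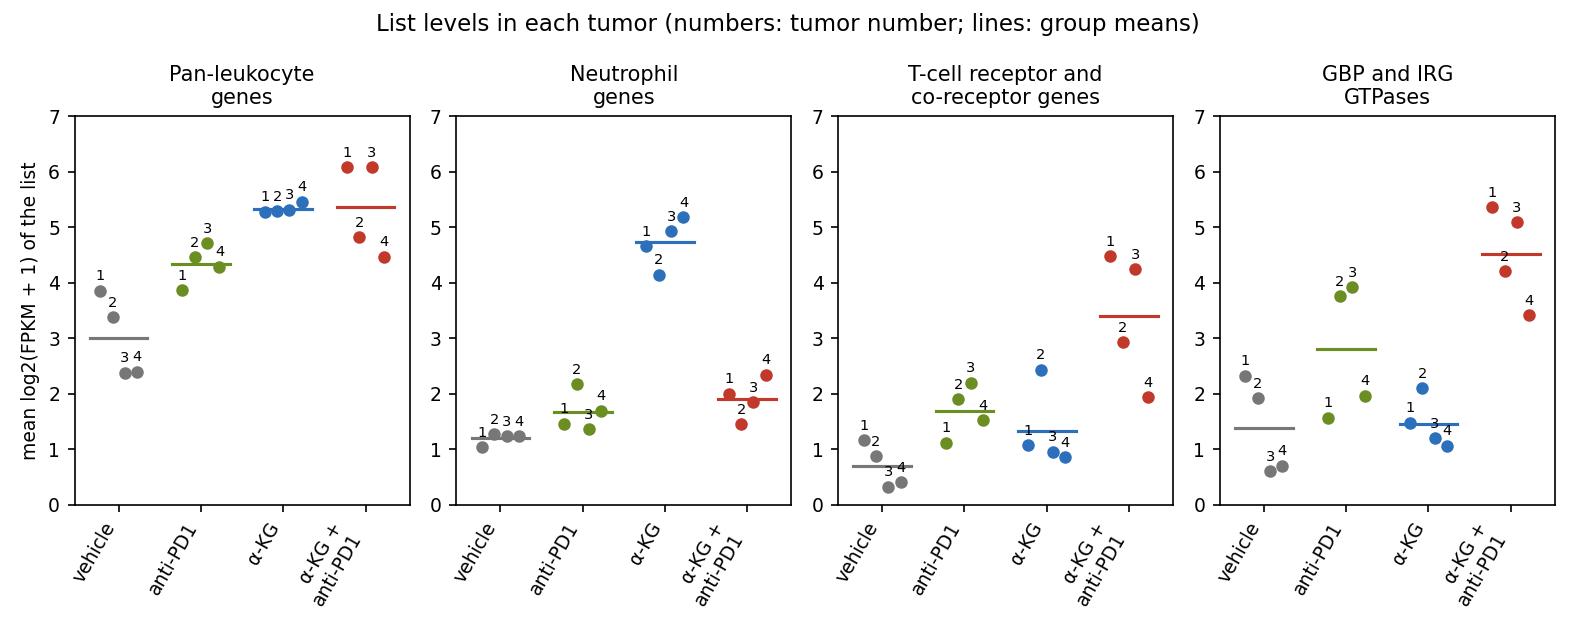
Mean log2(FPKM + 1) of 4 gene lists (vertical axis) in the 4 tumors of each of the 4 treatment groups, with numbers for tumors and lines at the group means. Pan-leukocyte levels of the α-KG tumors lie within the spread of the α-KG + anti-PD1 tumors, neutrophil levels are high in the 4 α-KG tumors, and the T-cell and GTPase levels are highest in the combination tumors on average, with α-KG tumor 2 above the other α-KG tumors.

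Macrophage genes were called at about the share of all genes. Of 18 tested genes of macrophage identity and lipid handling 7 rose and 1 fell, against 31.8% and 6.47% of all genes, with a median of 0.47, 3 rose and 2 fell after centering, and without combination tumors 1 and 2 only 1 rose. Adgre1, which encodes the macrophage marker F4/80, stood at 24.2, 12.6, 24.96 and 12.5 FPKM in the combination tumors and 19.4, 11.8, 11.1 and 10.6 FPKM in the α-KG tumors, with a 95% interval for the log2 fold change of -0.41 to 1.27. C1qa, a complement gene of tissue macrophages, stood at 396, 192, 429 and 179 FPKM against 119, 151, 83.7 and 75.2 (log2 fold change 1.42, standard error 0.47, adjusted p = 0.0273), but was not called without α-KG tumor 3 (1.32) or 4 (1.27) or combination tumor 1 (1.24) or 3 (1.21), nor without combination tumors 1 and 2 (1.42). The member that fell was Spp1, which encodes osteopontin, at 64.5, 65.95, 125 and 59.5 FPKM against 285, 152, 177 and 304 (log2 fold change -1.54, standard error 0.32, adjusted p = 0.00254). Of 7 tested genes of classical activation 4 fell and 0 rose, the list in which Tnf and Ptgs2 also stand. Nos2, its first gene and the inducible nitric oxide synthase, stood at 38.2, 6.32, 19.3 and 6.89 FPKM against 36.99, 9.40, 23.8 and 32.6 and did not pass (log2 fold change -0.71, adjusted p = 0.278). Of 11 tested genes of alternative activation 2 fell and 0 rose, among them Il10 (-0.97, adjusted p = 0.00893, and -0.76 and no longer called without combination tumors 1 and 2), while Arg1 stood at 23.2, 26.3, 49.1 and 21.01 FPKM against 76.8, 55.6, 35 and 58.5 and did not pass (log2 fold change -0.92, adjusted p = 0.0563). Arg1 was called after quantile normalization (-1.06), after centering (-1.20), without α-KG tumor 3 (-1.13) and without combination tumor 3 (-1.18). It was also called in the fit of only the 8 tumors compared (-0.92) and with the pan-leukocyte covariate (-0.94). Arg2, the mitochondrial arginase that neutrophils and activated myeloid cells express, fell from 15.8 ± 6.50 to 0.820 ± 0.452 FPKM (SD, n = 4, log2 fold change -3.17, adjusted p = 4.07e-07).

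Of 14 tested dendritic-cell genes 6 rose and 2 fell, a share of higher genes near the 31.8% of all genes, and 4 rose and 3 fell after centering. Flt3, whose receptor drives their development, did not pass (0.27, adjusted p = 0.406), and Irf8, needed by cross-presenting dendritic cells but also induced by IFNγ, rose by 2.11. The genes that fell were Cd24a, also a neutrophil surface gene, at 12.1, 5.65, 11.4 and 7.53 FPKM against 40.2, 40.1, 75.4 and 68.4 (log2 fold change -2.48), and Fscn1, an actin-bundling gene of mature dendritic cells, at 6.81, 10.4, 7.75 and 9.11 FPKM against 15.6, 21.95, 14.7 and 16.5 (log2 fold change -0.93). Both had separate groups.

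Cd274 (Gene ID 60533), the gene of PD-L1 and a known IFNγ target, did not rise between the groups as most other IFNγ-response genes did. It stood at 37.7, 19.95, 33.5 and 15.1 FPKM in α-KG + anti-PD1 tumors 1, 2, 3 and 4 and at 26.8, 22.2, 25.2 and 34.4 FPKM in the α-KG tumors. The combination values fell on both sides of the α-KG values, with tumors 1 and 3 high and tumors 2 and 4 low. Within the combination this was the order of Ptprc and also that of Iigp1, Gbp4, Gzmb and Cxcl9. Its log2 fold change was -0.10 with a 95% interval of -0.76 to 0.55 (adjusted p = 0.814), so a rise of 1 log2 unit lay outside the interval, while Irf1 and Cxcl9 in the same tumors rose by more. Of the 10 tested checkpoint ligand genes 2 rose and 1 fell, where 31.8% and 6.47% of all genes did, but 0 rose after quantile normalization or centering. The one that fell was Cd80, a ligand of CD28 and CTLA4, at 2.31, 1.07, 1.86 and 1.31 FPKM against 3.42, 4.17, 3.58 and 7.14 (log2 fold change -1.06, standard error 0.20, adjusted p = 0.00154).

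Among genes of enzymes that use α-KG, the calls depended on the scale for most of the lists. Tet2 (Gene ID 214133) stood at 6.14, 9.26, 8.19 and 6.28 FPKM against 3.29, 3.09, 2.10 and 4 (log2 fold change 1.04, standard error 0.30, adjusted p = 0.0134) and Tet3 at 8.93, 12.3, 10.2 and 10.3 FPKM against 7.15, 7.34, 6.04 and 8.23 (log2 fold change 0.48, standard error 0.16, adjusted p = 0.027), both with separate groups, and Tet1 at 0.50, 0.78, 0.73 and 1.13 FPKM against 0.66, 0.72, 0.66 and 0.66, with overlapping groups. Tet3 was not called under quantile normalization (0.19, adjusted p = 0.227), nor with centering (0.21, adjusted p = 0.191), nor without α-KG tumor 1 (0.48) or 3 (0.41) or combination tumor 2 (0.41) or 3 (0.49). Tet2 and Tet3 were not called without combination tumors 1 and 2 (adjusted p = 0.0738 and 0.102), with log2 fold changes of 1.01 and 0.47. Of 16 tested histone lysine demethylase genes 9 rose and 0 fell, with a median of 0.33, and the count was 1 after quantile normalization, 2 with centering and 14 with equal sums. Kdm3a, a demethylase that hypoxia induces, led the list at 46.3, 69.6, 53.3 and 61.04 FPKM against 35.3, 31.04, 28.4 and 35.7 (log2 fold change 0.79, standard error 0.17, adjusted p = 0.0031). Gadd45b, a stress-induced gene linked to DNA demethylation, fell from 85.7 ± 31.6 to 13.4 ± 5.00 FPKM (SD, n = 4, log2 fold change -2.58, adjusted p = 2.93e-05). Of 30 tested genes of the citric acid cycle and α-KG metabolism 4 rose and 1 fell, with a median of 0.0029, while 11 fell after centering and 11 rose after rescaling to the same sum. Idh1, which makes α-KG, stood at 32.2 ± 3.72 FPKM against 32.3 ± 2.02 (SD, n = 4, 95% interval of the log2 fold change -0.21 to 0.19).

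The tumor cells' own lineage genes stayed near the median of all genes. Of 14 tested melanocyte genes 1 fell and 0 rose, with a median of -0.0016, while 8 fell after centering and 3 rose after rescaling to the same sum. Mitf, the lineage factor, stood at 102, 133, 115 and 168 FPKM against 108, 108, 103 and 126 (95% interval of the log2 fold change -0.19 to 0.59). Tyrp1, a pigment enzyme gene, stood at 2087, 2205, 1846 and 2755 FPKM against 2989.96, 2601, 3249 and 3019 (log2 fold change -0.43, standard error 0.12, adjusted p = 0.0104), but it was not called after quantile normalization (-0.08) or rescaling to the same sum (-0.20), nor without combination tumors 1 and 2 (-0.39). Of 24 tested cell cycle genes 3 rose and 0 fell, with a median of 0.0041, but 11 fell and 1 rose after centering. Mki67, the proliferation marker Ki-67, led the genes that rose, at 18.5, 24.2, 14.2 and 21.8 FPKM against 5.54, 7.12, 5.26 and 6.76, with separate groups (log2 fold change 1.51, standard error 0.31, adjusted p = 0.00243). Ribosomal protein genes were lower in 26 of 32 tested cases and higher in 0, with a median of -0.46, but 8 were lower after quantile normalization and 31 after centering. Rps19 fell by 0.87 on the log2 scale, while Rpl3, the first gene of that list, did not pass (-0.21, adjusted p = 0.0534) except after centering (-0.48), among genes with 2 FPKM or more or without α-KG tumor 4 (-0.25).

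Genes of hypoxia moved apart. Of 21 tested genes of glycolysis and hypoxia 5 rose and 2 fell, where 31.8% and 6.47% of all genes did. Their median of -0.0013 was -0.27 with centering and 0.21 with equal sums. Vegfa, which encodes the main vessel growth factor, stood at 84.2, 164, 113 and 110.3 FPKM against 58.9, 46.9, 34.4 and 58.5 (log2 fold change 1.22, standard error 0.23, adjusted p = 0.00136). Egln3, a HIF prolyl hydroxylase that uses α-KG and is also abundant in neutrophils, stood at 4.11, 3.68, 5.85 and 3.05 FPKM against 16, 8.42, 12.5 and 15.04 (log2 fold change -1.43, standard error 0.19, adjusted p = 0.000161). Both had separate groups, in opposite directions, and the glucose transporter gene Slc2a1 stood at 119 ± 13.8 FPKM against 115 ± 23.5 (SD, n = 4, adjusted p = 0.754). Among the 10 tested endothelial genes 4 rose and 0 fell, where 31.8% and 6.47% of all genes did. After quantile normalization or centering 2 rose and 1 fell. The adhesion gene Vcam1 was up by 1.48 (limma adjusted p = 0.013, and 0.0657 without combination tumors 1 and 2). The endothelial marker Pecam1 was not called (-0.22, limma adjusted p = 0.525).

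Of 13 tested genes of heat shock and the unfolded protein response 6 fell and 1 rose, and 3 fell and 2 rose after rescaling to the same sum. Hspa1a, an inducible HSP70, stood at 11.2, 6.94, 14.4 and 5.38 FPKM against 34.5, 29.1, 27.3 and 34.3 (log2 fold change -1.70, standard error 0.28, adjusted p = 0.000696), and the gene that rose was Ddit3, which encodes the stress factor CHOP, at 86.4, 99.6, 97.95 and 85.6 FPKM against 55.5, 46.95, 59.6 and 46.8 (log2 fold change 0.82, standard error 0.14, adjusted p = 0.00101). The cystine transporter gene Slc7a11 fell from 7.24 ± 2.90 to 2.23 ± 1.34 FPKM (SD, n = 4, log2 fold change -1.36, adjusted p = 0.00567), and it was not called without combination tumors 1 and 2 (-1.09, adjusted p = 0.0730). Red-cell genes were lower in 8 of 11 tested cases. Hba-a1 stood at 4529, 4129, 4418 and 4387 FPKM against 10783, 29749, 36199.7 and 26719 (log2 fold change -2.44, standard error 0.47, adjusted p = 0.0016), and Alas2 and Hbb-bt fell by 2.63 and 2.60 on the log2 scale. Of the 15 tested skeletal muscle genes 0 were called by limma and 6 were higher at an unadjusted p under 0.05, with a median of 1.55 that was 0.01 without combination tumors 1 and 2. Over all 12850 genes tested, limma gave 6166 at that threshold, in either direction. Acta1, skeletal actin, stood at 23.4, 14.4, 0.41 and 0.42 FPKM against 0.22, 0.19, 0.30 and 0.65 and was called without combination tumor 3 (2.61) or tumor 4 (2.61).

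Whether the antibody acted differently with and without α-KG was tested by the difference of both effects, (α-KG + anti-PD1 minus α-KG) minus (anti-PD1 minus vehicle). Anti-PD1 alone moved far fewer genes, 96 of 12850 (0.747%), of which 60 were higher and 36 lower than in vehicle. The effects differed in 1429 genes, 11.1% of those tested, with the effect in the presence of α-KG the higher in 1027 (7.99%) and the lower in 402 (3.13%). Genes called under both conditions numbered 27, which is 0.549% of the genes called with and 28.1% of the genes called without α-KG. Of all genes tested, 0.747% were called without and 38.3% with α-KG, so the overlap was below these shares. Of the 27, 5 moved in the same direction and 22 in opposite directions. The count of 1429 was sensitive to single tumors and ran from 699 without anti-PD1 tumor 4 to 2362 without anti-PD1 tumor 2, and it was 789 without anti-PD1 tumor 1, 725 without α-KG tumor 3, 892 without combination tumor 2 and 555 without combination tumors 1 and 2.

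The effects differed in nearly all neutrophil genes. In 18 of the 19 tested neutrophil genes and in all 7 genes of neutrophil recruitment the effect with α-KG was the lower one, and these counts were at least 17 and 6 under every alternative. Cxcl2 stood at 4.71 ± 2.56 FPKM in vehicle and 11.6 ± 3.04 in anti-PD1 tumors (SD, n = 4), a log2 change of 1.24 (adjusted p = 0.346) against -6.30 with α-KG, and the difference of the effects was -7.54 (adjusted p = 0.000133). Cd14 rose after anti-PD1 alone, from 4.10 ± 2.85 to 21.7 ± 13.01 FPKM (SD, n = 4, log2 change 2.14, adjusted p = 0.0441), and fell when anti-PD1 was added to α-KG, with a difference of -6.27 (adjusted p = 3.08e-05). Il1rn, Ccl3, Ccl4, Spp1 and Hspa1a likewise rose after anti-PD1 alone, by 2.00, 1.44, 1.66, 1.66 and 1.76, and fell with α-KG. The level from which the antibody effect starts differed between the conditions, since these genes were low in vehicle and high in α-KG tumors.

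Most T-cell and IFNγ-response lists had larger median changes with α-KG, but the difference of the effects did not pass for most of their genes. The median log2 change of the GTPases was 2.83 with and 1.46 without α-KG, and that of the T-cell receptor complex genes 1.97 and 0.94. The difference was called in 0 of 17 GTPase genes, 0 of 15 T-cell receptor complex genes, 0 of 21 MHC class I genes, 0 of 8 NK-cell genes and 1 of 16 cytotoxic genes, which was Gzmf (3.10, adjusted p = 0.0374). At an unadjusted p under 0.05, limma gave 9, 1, 1, 1 and 7 genes of these lists, all higher with α-KG. Over all 12850 genes tested it gave 3818 at that threshold, in either direction. MHC class II genes were an exception, with a median change of 1.95 with and 1.90 without α-KG, a median of the differences of -0.37 and 0 of 11 differences called by limma, also at an unadjusted p under 0.05. Ctla4 (1.40, adjusted p = 0.0333) was the 1 of 10 inhibitory receptor genes with a called difference. For Ifng the effects were 2.44 and 0.74, with a difference of 1.70 (adjusted p = 0.0993), and for Cd274 they were -0.10 and 1.07, with a difference of -1.18 (adjusted p = 0.0883). Pan-leukocyte genes, unlike most of these lists, had the smaller median change with α-KG, 0.0007 with and 1.46 without it. The median of their differences was -1.40, and 2 of the 12 differences were called, both lower with α-KG. At an unadjusted p under 0.05, limma gave 9 of the 12, all lower with α-KG. When the pan-leukocyte level was added as a covariate, an alternative chosen after the data were seen, the difference was called as higher with α-KG in 17 of 17 GTPase genes, 15 of 15 T-cell receptor complex genes, 19 of 21 MHC class I genes, 7 of 8 NK-cell genes and 16 of 16 cytotoxic genes. Without combination tumor 4 it was called in 3, 1, 0, 4 and 7 genes of these lists, and without anti-PD1 tumor 2 in 3, 0, 1, 0 and 3. The calls for these lists thus changed with the treatment of total leukocyte level, and the part of leukocyte number in the result was not tested.

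**Figure D4:**
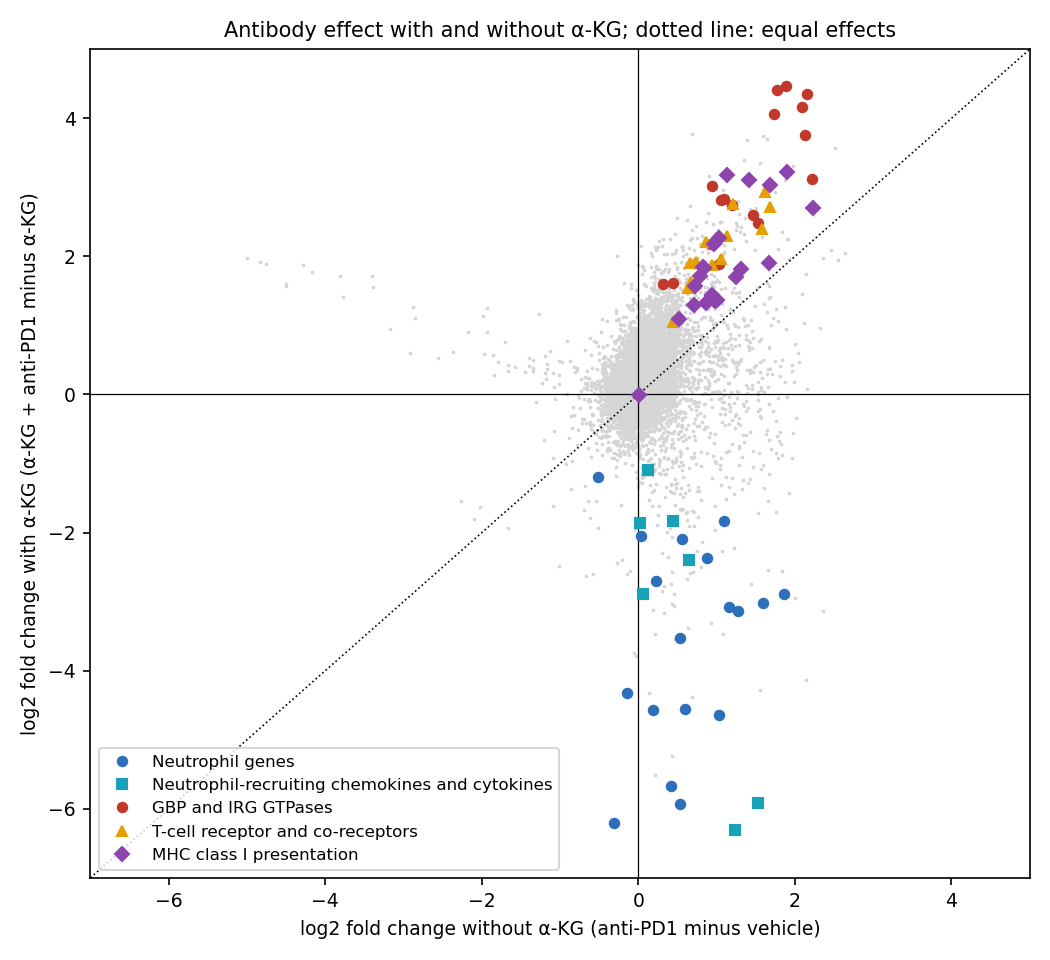
Each gene's log2 fold change for anti-PD1 against vehicle (horizontal axis) and for α-KG + anti-PD1 against α-KG (vertical axis), both on the log2(FPKM + 1) scale, with 5 lists in color, other genes in gray and a dotted line of equal effects. Neutrophil and chemokine genes lie far below 0 on the vertical axis, GTPase genes lie high on both axes, and the gray points at the upper left are skeletal muscle genes, which were high in the vehicle tumors.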

How the data were processed

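RNA of 16 B16F10 tumors was sequenced, 4 in each of 4 groups, and groups were taken from the labels. The values are FPKM per gene, as deposited by the authors in 1 table of 18929 genes, 5 of them at 0 in every tumor. HISAT, Bowtie2 and the genome build mm10 are named in the submitters' processing notes, and the program and annotation behind the FPKM values are not given in the sources used here. FPKM holds no read depth, and low values did not fall on whole steps (16.6% within 0.1 of a whole number of steps, against 20% by chance), so the depth behind each value, and with it the counting error, is unknown.

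FPKM was analyzed as log2(FPKM + 1) in genes that reached 0.5 FPKM in 4 or more of the 16 tumors. limma 3.58.1 (R 4.3.3) fitted 1 mean per group over all 16 tumors, with eBayes and a trend, and p was adjusted by Benjamini-Hochberg over 12850 genes with a threshold of 0.05. The fit was tested on simulated data. Fold changes are α-KG + anti-PD1 minus α-KG, and groups are called separate where all 4 tumors of one lay beyond all 4 of the other. p-values set each difference against the spread between tumors within groups, taken over all 4 groups. The fit of only the 8 tumors compared called 4493 genes, against 4918. No 2 tumors held the same values. The comparison, the gene lists and the genes named were chosen with earlier results of these data known. Genes were named where they were among the 12 largest changes each way with separate groups and a mean of at least 1 FPKM in the higher group, where they defined a list (its first gene) or were among its 4 largest called changes, or where the study names them. Cd274, Pdcd1, Stat3, Tet2 and Tet3 and the CD3, CD8, granzyme B and IFNγ genes are of the last kind, and the study chose them on these samples. A few genes that the rule names are not reported here.

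The labels number the tumors of each group from 1 to 4, but same-numbered α-KG and α-KG + anti-PD1 tumors did not deviate together (r = -0.036, 0.14, -0.137 and 0.289), and no source says that a number marks a shared batch, so tumors were not paired. Alternatives were another pseudocount, other filters, 4 other scalings, no trend, a replicate block, the 8 tumors alone, a pan-leukocyte covariate and leaving out each tumor in turn, and, added after the data were seen, leaving out α-KG + anti-PD1 tumors 1 and 2 and the covariate in the test of both antibody effects. Promoter sequences are from RefSeq, build GRCm38.p6, matched by gene to 80.4% of the genes tested. Tables and figures were made with Python 3.11.15, pandas 2.3.3 and matplotlib 3.10.9.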

Additional observations from a re-analysis of the deposited data

Results flagged for a closer look

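Among the 117 genes named, the effect of anti-PD1 in the presence of α-KG differed from its effect without α-KG in 46 by limma's test of the difference (adjusted p under 0.05). Over all genes tested it differed in 11.1%. Many of the named genes were chosen for a large change between α-KG + anti-PD1 and α-KG. That change is part of the difference, so the count of 46 does not measure how common such differences are. The values that follow are the log2 change with α-KG minus the log2 change without it. For neutrophil genes they were S100a9 (-6.47), S100a8 (-6.09), Lcn2 (-5.89), Hdc (-5.67), Stfa2l1 (-5.15), Slpi (-4.76) and Il1r2 (-4.23), and for neutrophil-recruiting factors Cxcl2 (-7.54), Cxcl3 (-7.46), Cxcl1 (-2.28), Ppbp (-3.05) and Csf3 (-2.95). For genes of IL-1, innate sensing and inflammatory mediators they were Il1b (-5.58), Il1rn (-4.96), Il1a (-3.47), Cd14 (-6.27), Tlr2 (-2.49), Ptgs2 (-4.01), Tnf (-2.53), Ccl3 (-4.18) and Ccl4 (-4.19). For other myeloid and acute-phase genes they were Saa3 (-5.72), G0s2 (-5.66), Cstdc4 (-5.06), Arg2 (-3.49), Arg1 (-2.89), Spp1 (-3.20), Il10 (-1.44), Fscn1 (-1.20) and Cd80 (-1.71). For stress, feedback, death receptor, oxygen-sensing, red-cell and pigment genes they were Hspa1a (-3.46), Gadd45b (-3.24), Dusp1 (-3.01), Zfp36 (-1.83), Socs3 (-2.17), Fas (-1.83), Slc7a11 (-1.84), Egln3 (-1.89), Hba-a1 (-2.17) and Tyrp1 (-0.62). Only 6 of the 46 were higher with α-KG, Acta1 (6.98), Gzmf (3.10), Mki67 (1.55), Vegfa (1.51), Ctla4 (1.40) and Ddit3 (0.96). Skeletal muscle genes such as Acta1 were high in the vehicle tumors, with list levels of 2.48, 2.48, 2.79 and 5.46, and in α-KG + anti-PD1 tumors 1 and 2, and their part in the difference was not tested.

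In 14 of 238 groups of 4 tumors, 1 tumor stood far from the other 3 of its group, a share near the about 1 in 20 that chance flags. In 10 of these it was α-KG tumor 2, which was the highest of its group for Cd8a (3.63 FPKM), Cd3e (3.32 FPKM), Pdcd1 (3.06 FPKM), Tigit (5.89 FPKM), Tcf7 (10.2 FPKM), Tnfrsf4 (1.79 FPKM), Gbp4 (1.63 FPKM), Apol9b (5.10 FPKM) and Tet1 (0.72 FPKM) and the lowest for Lcn2 (136 FPKM). α-KG + anti-PD1 tumor 4 was the highest of its group for Cxcl2 (49.1 FPKM), Slpi (6.73 FPKM) and Csf3 (1.27 FPKM), and tumor 3 for Spp1 (125 FPKM). The groups reuse the same 8 tumors across genes, so flags in 1 tumor are not separate events.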

How the results depend on the processing

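The number of genes called between α-KG + anti-PD1 and α-KG, 4918, ran from 3459 without α-KG tumor 3 to 4839 without combination tumor 4 when tumors of these groups were left out in turn, and was 2536 (2135 higher, 401 lower) without combination tumors 1 and 2, where fewer tumors were fitted, an alternative chosen after the data were seen. Direction depended on scaling. Higher and lower calls were 2023 and 2020 after quantile normalization, 1758 and 3127 after centering and 6846 and 367 after rescaling to the same sum, against 4086 and 832, and genes with separate groups were 1767 and 1878, 1474 and 3110, and 6060 and 246, against 3819 and 730, with 478 lower after rescaling to the same sum without hemoglobin genes. Of the calls after quantile normalization 2705, and after centering 2590, were among the 4918. The difference of both antibody effects, 1429 genes (1027 higher, 402 lower), gave 2401 (2118 higher) after rescaling to the same sum, 569 higher after quantile normalization, 389 higher and 633 lower after centering, 2784 (2281 higher) with the pan-leukocyte covariate and 555 (314 higher, 241 lower) without combination tumors 1 and 2, both of the latter chosen after the data were seen. Leaving out each tumor in turn gave 699 to 2362 genes, 422 to 1865 of them higher. The cause of these changes was not tested. A replicate block, which the pairing check did not support, gave 4482 calls (3756 higher, 726 lower) and 1010 (691 higher, 319 lower) for the difference of the effects. Of 101 named genes that were called, 86 were called under every alternative, and none of the 101 reversed. The depth behind each FPKM value is unknown, so low genes such as Ncr1, Csf3 and Tet1 carry a counting error that cannot be given.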

Other observations

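The list counts that follow stand beside 31.8% of all genes called higher and 6.47% called lower. Of 14 tested monocyte genes 1 rose and 2 fell, of 13 genes of SOCS and JAK-STAT feedback 3 rose and 1 fell, of 12 factors of T-cell fate 4 rose, and of 8 receptor genes of the common gamma chain and IL-15 3 rose and 1 fell. Of 17 fibroblast and collagen genes 2 rose and 2 fell, of 13 genes of ferroptosis and iron 1 rose and 4 fell, and of 8 genes of arginine and tryptophan catabolism 2 fell. Of 25 respiratory chain genes 2 rose and 2 fell, but 7 rose and 0 fell after quantile normalization, 0 rose and 14 fell after centering and 10 rose and 0 fell after rescaling to the same sum. Of 10 genes of TET enzymes and DNA methylation 5 rose and 1 fell, but 2 rose and 2 fell after quantile normalization and 1 rose and 2 fell after centering. Scale also moved other counts, since after rescaling to the same sum 6 SOCS and feedback genes and 7 factors of T-cell fate rose and 3 ferroptosis and iron genes rose and 3 fell, and after centering 0 monocyte genes rose and 4 fell. B cells were near the limit of the table, since Ms4a1, a gene that defines them, reached at most 2.39 FPKM in any tumor, and 1 of 4 tested B-cell and plasma-cell genes rose, with 0 rising and 1 falling after quantile normalization or centering.

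Some genes outside the lists also moved far, and they were chosen here after their values were seen. Thbs1, which encodes the matrix protein thrombospondin 1, stood at 13.3, 7.63, 20.6 and 11.9 FPKM in combination tumors 1, 2, 3 and 4 against 89.8, 108, 98.3 and 209 FPKM in α-KG tumors (log2 fold change -3.14, standard error 0.37, adjusted p = 6.32e-05 by limma). It rose after anti-PD1 alone (log2 change 2.36, adjusted p = 0.0203). Ifitm1, an interferon-induced membrane protein gene, stood at 10.6, 3.92, 9.56 and 6.96 FPKM against 144, 96.6, 213 and 227 (log2 fold change -4.28), so it fell while the GTPases of the IFNγ response rose, and it too rose after anti-PD1 alone (1.55). Osm, which encodes the myeloid cytokine oncostatin M, stood at 3.34, 1.30, 3.17 and 3.42 FPKM against 24.5, 33.1, 34 and 57.6 (log2 fold change -3.31), and Hcar2, a receptor gene of neutrophils and macrophages, at 12.8, 2.22, 7.69 and 7.88 FPKM against 78.95, 61.5, 75.1 and 136 (log2 fold change -3.47). Ly6a, the interferon-inducible Sca-1 gene, rose by 3.11 and stood at 105, 47.9, 117 and 23.9 FPKM against 8.89, 16.1, 4.09 and 2.19 FPKM. In each of these genes all 4 tumors of one group lay beyond the other 4.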
